A study of Mus musculus with 12 samples.

Results

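The 9 death receptor and necroptosis genes described here are Tnf, Tnfsf10, Tnfrsf1a, Fadd, Casp8, Cflar, Ripk1, Ripk3, and Mlkl. They were listed by symbol for their known roles, and the rule used no measured value, though earlier results of these data were known. Each symbol matched an Ensembl identifier among the 40551 genes of the count files. All 9 were among the 15070 genes that passed the filter on low counts and were tested.

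Binding of TNF to its receptor TNFR1, the product of Tnfrsf1a, assembles a signaling complex around the kinase RIPK1 that activates NF-kB. When ubiquitin chains no longer hold that complex together, FADD and caspase-8 bind RIPK1 and start apoptosis, with cFLIP, the product of Cflar, as the brake on caspase-8. When caspase-8 is blocked, RIPK1 and RIPK3 instead lead to phosphorylation of MLKL, which breaks the plasma membrane in necroptosis. Hepatocytes are known to die in response to death receptor ligands, and MCL1 guards them against the mitochondrial arm of apoptosis.

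Total RNA was sequenced from 12 mouse liver samples of 4 genotypes, with 3 samples each, to ask what hepatocyte loss of Mcl1 does to the liver with and without Sting1, the adaptor of cytosolic DNA sensing. The WT livers carried neither deletion. In Mcl1Δhep livers (Mcl1 KO in the labels), floxed Mcl1 was removed by a Cre driven by the albumin promoter, which acts in hepatocytes. The paper reports that MCL1 staining in such livers was nearly confined to nonparenchymal cells. The Sting1-/- livers (Sting1 KO) lacked Sting1 in all cells, and the Mcl1Δhep Sting1-/- livers (Mcl1 Sting1 DKO) came from a cross of both lines. WT and Mcl1Δhep livers for these transcriptomes came from mice 2 months old, and the age at which the other RNA samples were taken is not given in the sources used here. No animal names are given beside the replicate numbers, so p-values measure the spread between these samples.

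The libraries held from 28826367 to 45266387 counts on genes. Mcl1 had 98.6 ± 7.36 CPM in WT livers and 29.0 ± 4.58 CPM in Mcl1Δhep livers (mean ± SD, n = 3 each, where CPM are counts scaled to library size with the TMM factors of edgeR), and 22.3 ± 3.96 and 81.8 ± 7.20 CPM in Mcl1Δhep Sting1-/- and Sting1-/- livers. Sting1 had 2.36 ± 0.219 CPM in WT livers and 1.86 ± 0.779 CPM in Sting1-/- livers, so its count did not separate these labels. The deleted part of Sting1 is not given in the sources used here, and reads outside it check nothing. The 9 hepatocyte markers with an identifier summed to between 94020 and 156200 CPM in every library. The Mcl1Δhep libraries were not alike. Replicates 2 and 3 had 2.78 and 1.55% of their counts on small structured RNAs and 0.580 and 0.565% on mitochondrial genes, whereas replicate 1 had 0.315% and 1.63%. The other 9 libraries had 1.05 to 1.42% on mitochondrial genes. Their share of small structured RNAs was 0.192 to 0.422% in WT, 0.492 to 0.623% in Mcl1Δhep Sting1-/-, and 0.599 to 0.982% in Sting1-/- libraries. Every WT library was thus below every library without Sting1, so this share was tied to genotype. An adjustment for it cannot be fully told apart from the genotypes compared. Skeletal muscle markers summed to 1303 CPM in Mcl1Δhep replicate 3 and to at most 7.21 CPM in all WT, Mcl1Δhep Sting1-/-, and Sting1-/- libraries. Y-linked genes, which mark male animals, were expressed in WT replicates 2 and 3 and in Mcl1Δhep Sting1-/- replicate 1. They were expressed in none of the Mcl1Δhep and Sting1-/- libraries, so no comparison of genotypes here, the average effect and the interaction included, was balanced for sex.

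Per base of summed exon length, the TNFR1 gene was the most abundant of the 9 and its ligand gene Tnf the least. In WT livers Tnfrsf1a led with 63.7 ± 9.44 TPM, a scale that divides counts by the summed length of all annotated exons. Casp8 followed with 36.6 ± 3.36, Cflar with 25.6 ± 2.92, and Ripk1 with 14.3 ± 0.984 TPM. Tnfsf10 with 8.21 ± 2.09 and Fadd with 8.15 ± 0.598 TPM came next, and their ranges overlapped. Mlkl had 4.24 ± 1.06, Ripk3 1.87 ± 0.550, and Tnf 0.755 ± 0.509 TPM. Apart from Tnfsf10 and Fadd, no neighbors in this WT order overlapped. The order of the upper 4 genes depends on the lengths: 14458 bases for Cflar, 10993 for Ripk1, 3149 for Tnfrsf1a, and 3081 for Casp8. In CPM, WT livers had means of 103 for Cflar, 55.8 for Tnfrsf1a, 43.7 for Ripk1, and 31.45 for Casp8. By TPM, the upper 4 genes and the lowest pair, Ripk3 and Tnf, kept their places in all 4 genotypes. In the middle, Mlkl moved from rank 7 in WT livers to rank 5 in Mcl1Δhep livers, with 7.61 ± 1.97 TPM, and to rank 6 in Mcl1Δhep Sting1-/- livers, with 7.01 ± 1.95 TPM. Its range overlapped those of Ripk1, Fadd, and Tnfsf10 in Mcl1Δhep livers and those of Fadd and Tnfsf10 in Mcl1Δhep Sting1-/- livers. In Mcl1Δhep livers the ranges of Casp8, Cflar, and Ripk1 also overlapped from neighbor to neighbor.

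**Figure D1:**
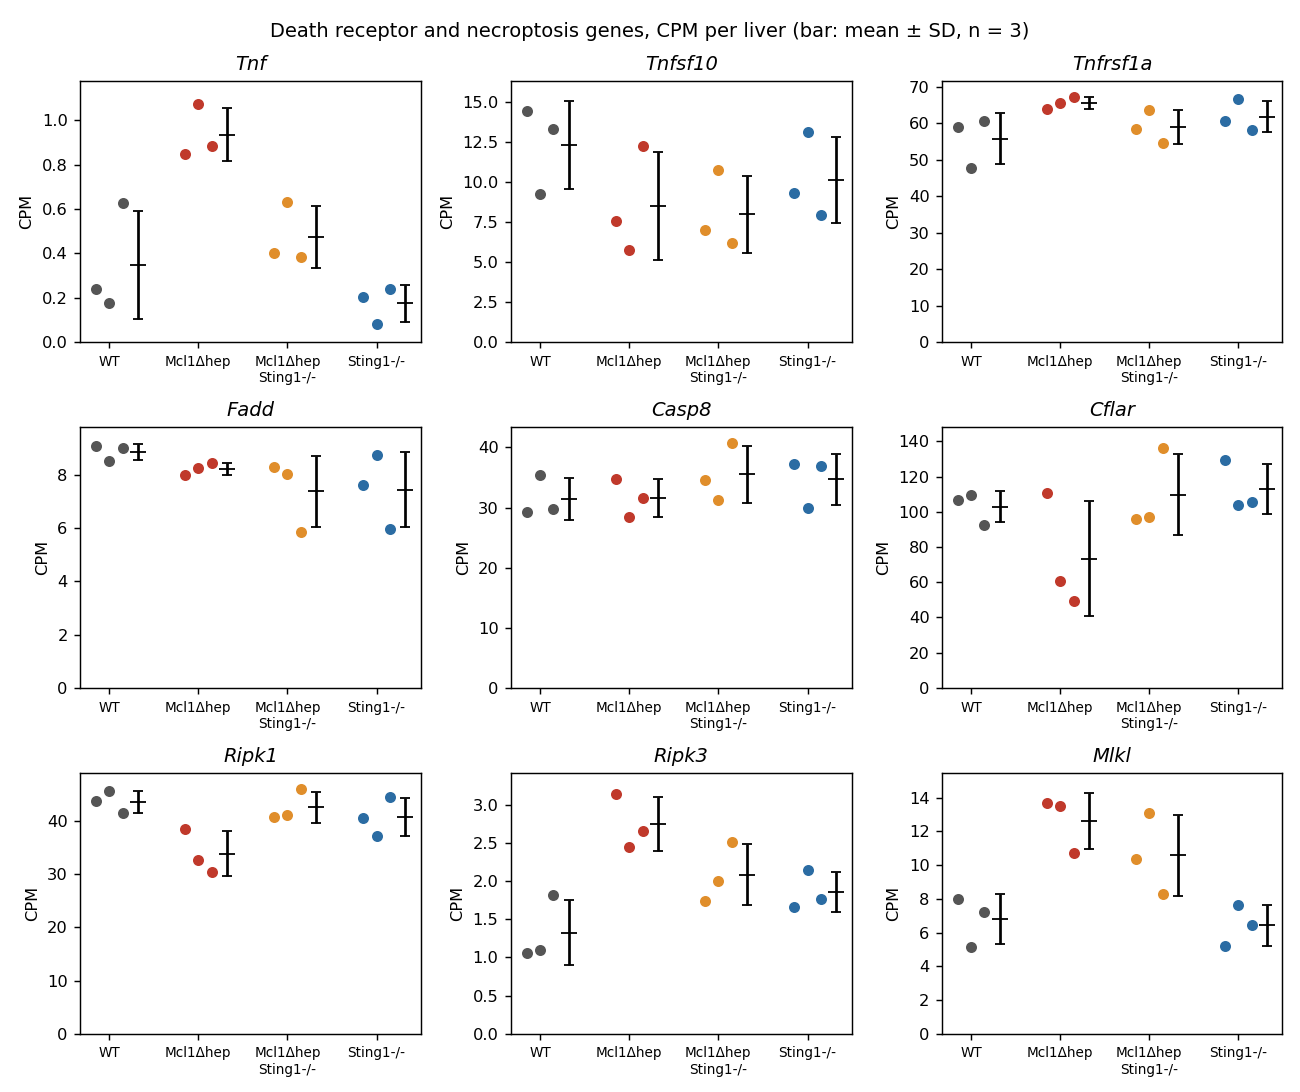
CPM (vertical axes, starting at 0) of the 9 genes in each of the 12 liver samples, with points in replicate order by genotype and a bar for the mean ± SD (n = 3). Tnf, Ripk3, and Mlkl were above all WT points in the 3 Mcl1Δhep livers, and Cflar and Ripk1 were low in Mcl1Δhep replicates 2 and 3.

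The comparison of Mcl1Δhep with WT livers asks what hepatocyte loss of Mcl1 changed. Ripk3 and Mlkl, the kinase and the executioner of necroptosis, rose by 2.09-fold and 1.86-fold. Tnf was 2.71-fold higher in the fitted values without passing the threshold, and neither its receptor nor Fadd or Casp8 passed. The quasi-likelihood test of edgeR therefore called 2 of the 9 genes at an adjusted p under 0.05, both higher, whereas it called 20.2% of all tested genes (10.8% higher and 9.43% lower). DESeq2 called 4 of the 9 and 25.9% of all genes. The median log2 fold change was 0.00 over the 9 genes and 0.00 over all tested genes. For 6 of the 9 genes the samples of the 2 genotypes did not overlap, 4 higher (Tnf, Tnfrsf1a, Ripk3, and Mlkl) and 2 lower (Fadd and Ripk1) in Mcl1Δhep livers, which held for 33.3% of all tested genes (16.2% higher and 17.1% lower). The RNA is of whole liver, so a gene that is lower or higher because a cell type is scarcer or more frequent cannot be told apart from one whose RNA per cell differs.

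Tnf, the ligand of TNFR1, lies on chromosome 17 (GRCm39, 35418357 to 35420983, minus strand) and was the gene with the fewest counts. WT livers had 0.237, 0.178, and 0.627 CPM, from 9, 6, and 19 counts. Mcl1Δhep livers had 0.848, 1.07, and 0.886 CPM, from 41, 35, and 28 counts. All 3 Mcl1Δhep livers were above the highest WT liver. The log2 fold change was 1.44 (SE 0.48, adjusted p = 0.0515 with edgeR and 0.0342 with DESeq2), so the 2 tests placed Tnf on opposite sides of the threshold. Tnfsf10, which encodes the ligand TRAIL, had 14.4, 9.22, and 13.3 CPM in WT livers and 7.53, 5.72, and 12.2 CPM in Mcl1Δhep livers. Mcl1Δhep replicate 3 lay within the WT range and the other two were below it, and edgeR gave a log2 fold change of -0.54 (SE 0.31, adjusted p = 0.224).

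Tnfrsf1a (chromosome 6, 125325566 to 125339632, plus strand) differed little in size. It had 59.0, 47.7, and 60.6 CPM in WT livers and 64.0, 65.5, and 67.2 CPM in Mcl1Δhep livers. The Mcl1Δhep samples were tightly grouped above all WT samples, and WT replicate 2 was the low one. The log2 fold change was 0.23, with a 95% interval of -0.04 to 0.51 (adjusted p = 0.197 with edgeR).

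Fadd (chromosome 7, 144131055 to 144136211, minus strand) encodes the adaptor that brings caspase-8 to death receptors. It had 9.08, 8.51, and 9.02 CPM in WT livers and 7.99, 8.26, and 8.44 CPM in Mcl1Δhep livers. The lowest WT and the highest Mcl1Δhep liver were close to each other, and the log2 fold change was -0.11 (95% interval -0.48 to 0.27, adjusted p = 0.682 with edgeR). Casp8 had 29.2, 35.4, and 29.7 CPM in WT livers and 34.7, 28.4, and 31.6 CPM in Mcl1Δhep livers. These ranges overlapped almost fully. Its log2 fold change of 0.00 had a 95% interval of -0.32 to 0.33 (adjusted p = 0.986 with edgeR).

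Cflar sits 36328 bases before Casp8 on chromosome 1 (58750321 to 58798047, plus strand) and encodes the inhibitor of caspase-8. WT livers had 107, 109, and 92.8 CPM and Mcl1Δhep livers had 111, 60.5, and 49.2 CPM. Mcl1Δhep replicate 1 was above all WT livers while replicates 2 and 3 were far below them, which gave Cflar a coefficient of variation of 44.7% in this group, the highest of the 9 genes there. The log2 fold change was -0.49 (SE 0.26, adjusted p = 0.201 with edgeR). The low pair were the libraries with the high share of small structured RNAs, and after adjustment for that share the log2 fold change was 0.11 (adjusted p = 0.829 with edgeR). Without Mcl1Δhep replicate 1 it was -0.91 and passed the threshold, in a fit that called 5232 of all genes. The ratio of Cflar to Casp8 in CPM was 3.66, 3.09, and 3.12 in WT livers and 3.19, 2.13, and 1.56 in Mcl1Δhep livers. In this ratio, Mcl1Δhep replicate 1 lay within the WT range, and replicates 2 and 3 fell below it.

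Ripk1 (chromosome 13, 34186141 to 34221130, plus strand) encodes the kinase on which survival and death signals from TNFR1 meet. WT livers had 43.7, 45.7, and 41.6 CPM, and Mcl1Δhep livers had 38.6, 32.7, and 30.4 CPM. All 3 Mcl1Δhep livers were below all WT livers, again with replicates 2 and 3 lowest. The log2 fold change was -0.37 (SE 0.13, adjusted p = 0.0601 with edgeR and 0.0418 with DESeq2). Without Mcl1Δhep replicate 1 it was -0.47 and was called by edgeR, and after adjustment for the small RNA share it was -0.20. An exon of Ripk1 shares 241 bases with Serpinb6a on the opposite strand, and whether the counting used strand is not given in the sources used here.

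Ripk3 (chromosome 14, 56022452 to 56026324, minus strand) encodes the kinase that acts on MLKL. WT livers had 1.06, 1.10, and 1.82 CPM, from 40, 37, and 55 counts, and Mcl1Δhep livers had 3.15, 2.45, and 2.66 CPM, from 152, 80, and 84 counts. Every Mcl1Δhep liver was above the WT range, with replicate 1 highest. The log2 fold change was 1.06 (SE 0.26, adjusted p = 0.0180 with edgeR). With Ripk1 lower and Ripk3 higher, the ratio of Ripk1 to Ripk3 in CPM was 12.3, 13.4, and 11.4 in Mcl1Δhep livers and 41.4, 41.7, and 22.9 in WT livers. That the 2 ranges of this ratio did not overlap follows from the 2 genes, whose samples did not overlap either, and adds no separate result. The ratio was 18.3 to 23.4 in Mcl1Δhep Sting1-/- and 17.3 to 25.3 in Sting1-/- livers, ranges that held WT replicate 3.

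Mlkl (chromosome 8, 112036296 to 112065168, minus strand) encodes the pseudokinase that disrupts the membrane. WT livers had 7.99, 5.16, and 7.23 CPM, and Mcl1Δhep livers had 13.7, 13.5, and 10.7 CPM. The lowest Mcl1Δhep liver was above the highest WT liver. The log2 fold change was 0.90 (SE 0.22, adjusted p = 0.0174 with edgeR). Ripk3 lost its call when WT replicate 1 or WT replicate 2 was left out, and Mlkl lost it without Mcl1Δhep replicate 2 or WT replicate 2, with log2 fold changes that stayed between 0.73 and 1.35. After adjustment for the small RNA share neither gene passed, at log2 fold changes of 1.12 for Ripk3 and 0.91 for Mlkl, nor did they with Y-linked expression as a covariate, at 1.08 and 0.77.

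**Figure D2:**
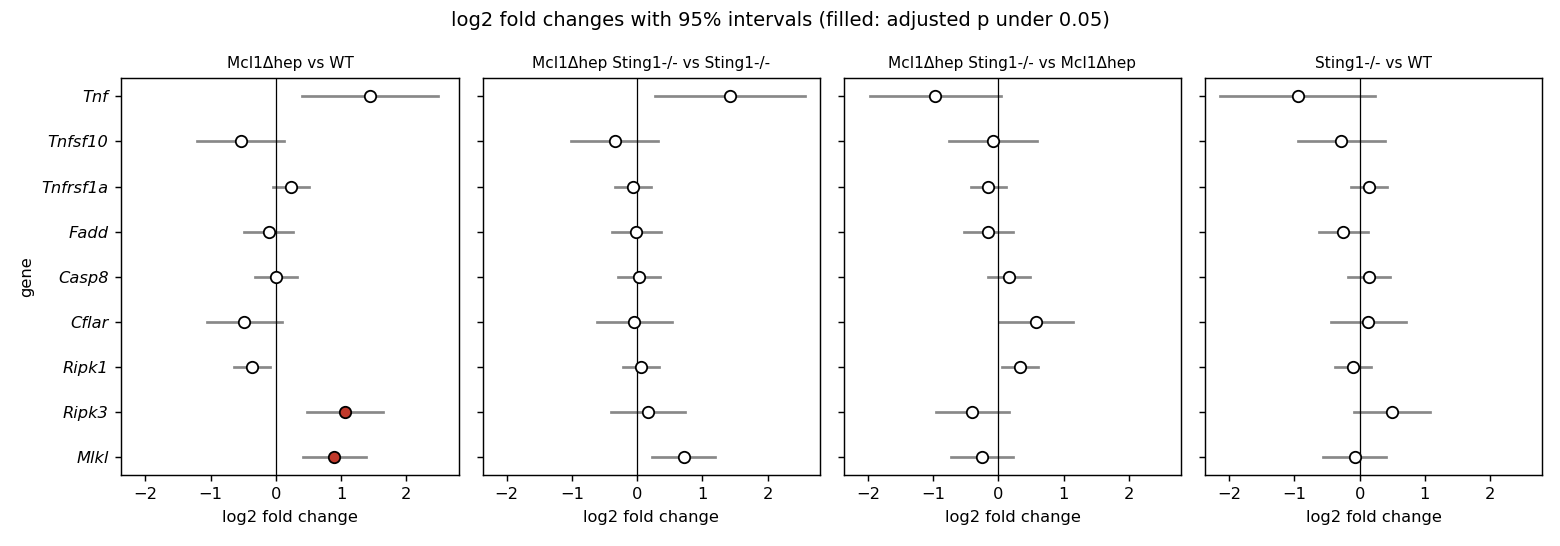
Log2 fold changes (horizontal axes) of the 9 genes in the 4 comparisons of genotypes, with 95% intervals from edgeR as lines and filled points for an adjusted p under 0.05. Only Ripk3 (1.06) and Mlkl (0.90) in Mcl1Δhep against WT livers are filled.

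Most markers of macrophages, neutrophils, and stellate cells were also called higher in Mcl1Δhep livers. Of 10 macrophage and Kupffer cell markers, 6 were called higher in Mcl1Δhep livers, where 10.8% of all tested genes were. The list summed to 486 to 738 CPM in WT livers and 898 to 1076 CPM in Mcl1Δhep livers. It did not move as a whole. The 4 markers not called had log2 fold changes of 0.43 (Clec4f), 0.14 (Vsig4), -0.07 (Csf1r), and -0.29 (Timd4). Of 5 tested neutrophil markers, 5 were called higher, and the list summed to 3.03 to 4.66 CPM in WT livers and 9.87 to 22.8 CPM in Mcl1Δhep livers. The defining marker Ly6g was not tested. It was at 0 in all WT and Sting1-/- libraries and had only 0.0418 ± 0.0484 CPM in Mcl1Δhep livers. Of 11 tested T and NK cell markers 3 were called higher, with sums of 6.44 to 8.26 and 9.81 to 14.1 CPM. Of 8 stellate cell markers 5 were called higher, with sums of 426 to 668 and 880 to 939 CPM. Among these 5, Des had 29.0 ± 35.45 CPM in Mcl1Δhep and 5.03 ± 1.54 CPM in WT livers. Its spread in Mcl1Δhep livers was above its mean, and the part in it of the skeletal muscle signal of replicate 3 was not tested. None of the 8 sinusoidal endothelial, 6 cholangiocyte, or 5 B cell markers was called, and 1 of 9 hepatocyte markers, the cytochrome gene Cyp2e1, was called lower. The part of these cells in the values of the 9 genes was not tested.

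**Figure D3:**
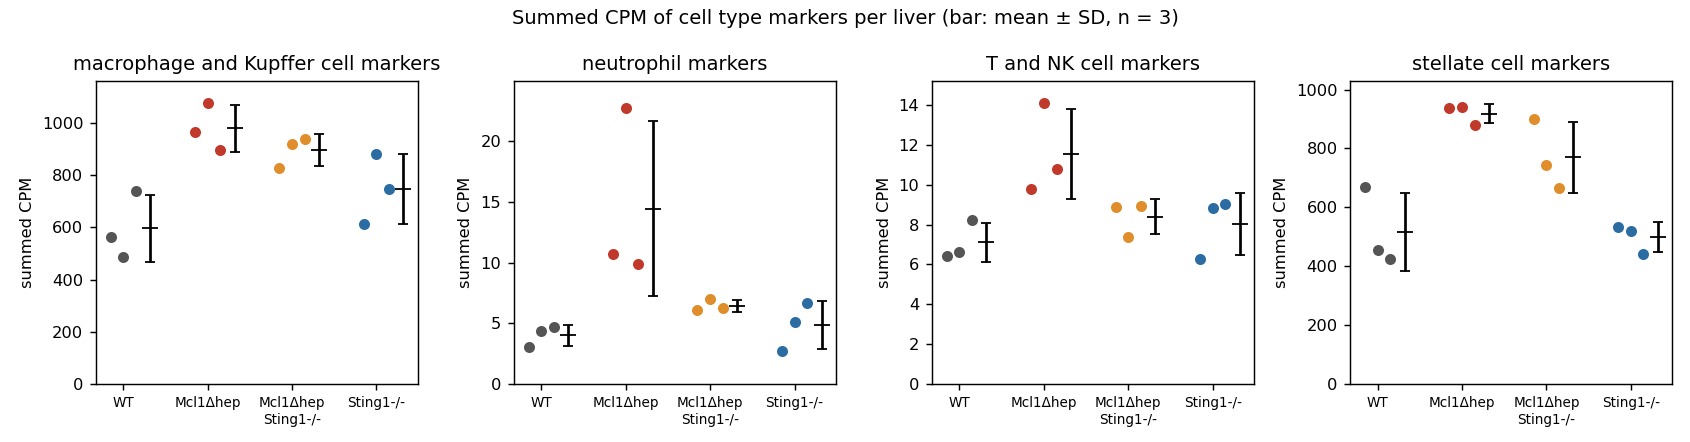
Summed CPM (vertical axes, starting at 0) of 4 lists of cell type markers in each of the 12 liver samples, with bars for the mean ± SD (n = 3). The 3 Mcl1Δhep samples are above all WT samples for each list, between 898 and 1076 CPM for macrophages.

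The same deletion was also made in livers without Sting1, in samples that share none with the comparison above. No gene of the 9 was called between Mcl1Δhep Sting1-/- and Sting1-/- livers, where edgeR called 121 genes, or 0.803% of those tested. Tnf and Mlkl were the 2 genes of the 9 whose groups did not overlap, both higher in Mcl1Δhep Sting1-/- livers, and 22.3% of all tested genes did not overlap. Mlkl had 10.4, 13.1, and 8.26 CPM in Mcl1Δhep Sting1-/- livers and 5.21, 7.64, and 6.47 CPM in Sting1-/- livers. The lowest sample of the former was above the highest of the latter, with a log2 fold change of 0.72 (SE 0.22, adjusted p = 0.196 with edgeR). Tnf had 0.401, 0.634, and 0.383 CPM, from 12, 26, and 14 counts, against 0.204, 0.0796, and 0.241 CPM, from 7, 3, and 10 counts. All Mcl1Δhep Sting1-/- samples were higher, with a log2 fold change of 1.42 (SE 0.53, adjusted p = 0.299 with edgeR).

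Ripk3 in these livers had 1.74, 1.998, and 2.52 CPM with the Mcl1 deletion and 1.66, 2.15, and 1.76 CPM without it. The ranges overlapped, and its log2 fold change was 0.17 (95% interval -0.40 to 0.73, adjusted p = 0.882 with edgeR). Ripk1 had 40.7, 41.1, and 46.0 CPM against 40.6, 37.3, and 44.5 CPM, and Cflar had 95.9, 97.0, and 136 CPM against 129, 104, and 106 CPM. Neither gene separated the groups, with log2 fold changes of 0.06 and -0.04. The Casp8, Fadd, and Tnfrsf1a changes were 0.03, -0.01, and -0.07, and Tnfsf10 was at -0.34 (95% interval -1.01 to 0.33).

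Averaged over both Sting1 backgrounds, 3 of the 9 genes rose with the Mcl1 deletion, while edgeR called 16.7% of all tested genes (9.9% higher and 6.83% lower). Mlkl rose by 0.81 on the log2 scale (SE 0.16, adjusted p = 0.00564 with edgeR) and passed in each of the 12 fits that left out 1 library. Tnf rose by 1.43 (SE 0.36, adjusted p = 0.0175) and passed in 11 of those 12 fits, with 1.29 without Mcl1Δhep Sting1-/- replicate 2. Ripk3 rose by 0.61 (SE 0.19, adjusted p = 0.0406) and passed only in the fit without WT replicate 3, at 0.76, while the other 11 gave 0.54 to 0.67. After adjustment for the small RNA share only Mlkl passed, with Tnf at 1.25 (adjusted p = 0.0553 with edgeR) and Ripk3 at 0.64 (adjusted p = 0.0749), and with the replicate block Ripk3 was at 0.62 (adjusted p = 0.0503). Ripk1 and Cflar averaged -0.15 and -0.26 and did not pass, although Cflar was called without Mcl1Δhep replicate 1, at -0.48. Without Mcl1Δhep replicates 2 and 3 together, a setting added after the data were seen, only Mlkl of the 9 genes was called on average, at 0.86. In the same average, 5 of 10 macrophage, 4 of 5 neutrophil, 5 of 8 stellate cell, 2 of 11 T and NK cell, and 1 of 5 B cell markers were called higher, and their part in these values was not tested.

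Whether the effect of the Mcl1 deletion differed between livers with and without Sting1 was tested as an interaction, and no gene of the 9 or of all tested genes was called by edgeR (0.0%). Over all tested genes, 2165 had an unadjusted p under 0.05, and DESeq2 called 172 genes, or 1.14%. Among the 9 genes, Ripk3 and Ripk1 had an unadjusted p under 0.05. The Ripk3 effect was smaller by 0.89 on the log2 scale in livers without Sting1 (95% interval -1.70 to -0.09, unadjusted p = 0.0325 and adjusted p = 0.322 with edgeR). For Ripk1 the effect was 0.43 higher there (95% interval 0.04 to 0.82, unadjusted p = 0.0341, adjusted p = 0.322 with edgeR), and for Cflar 0.44 higher with a wider interval (-0.36 to 1.25). Without Mcl1Δhep replicate 1, edgeR called 1574 of all genes in the interaction, Ripk1 among them. The interaction was -0.18 for Mlkl (95% interval -0.86 to 0.50) and -0.02 for Tnf (-1.57 to 1.54), intervals that leave room for sizable differences in Tnf.

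A direct comparison of Mcl1Δhep Sting1-/- with Mcl1Δhep livers asks what loss of Sting1 changed in livers without hepatocyte Mcl1. It shares the Mcl1Δhep samples with the first comparison. Again edgeR called none of the 9 genes and 0 of all tested genes (0.0%), with 3098 genes at an unadjusted p under 0.05 and 671 genes, or 4.74%, called by DESeq2. For 3 of the 9 genes the groups did not overlap, against 18.2% of all tested genes. Ripk1 was higher in each Mcl1Δhep Sting1-/- liver, with 40.7 to 46.0 CPM against 30.4 to 38.6 CPM and a log2 fold change of 0.33 (SE 0.13, adjusted p = 0.184 with edgeR). Tnf and Tnfrsf1a were lower in each, with log2 fold changes of -0.97 (SE 0.46, adjusted p = 0.254 with edgeR) and -0.15. Mlkl and Ripk3 overlapped, at -0.26 (95% interval -0.73 to 0.22) and -0.40 (95% interval -0.96 to 0.16). Cflar had 95.9 to 136 CPM against 49.2 to 111 CPM, with a log2 fold change of 0.58 (adjusted p = 0.240 with edgeR). Without Mcl1Δhep replicate 1, edgeR called Cflar at 1.01 and Ripk1 at 0.44, in a fit that called 3108 of all genes.

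Sting1-/- and WT livers, which share the WT samples with the first comparison, overlapped for all 9 genes, while 12.5% of all tested genes did not overlap. No gene of the 9 and 0 of all tested genes (0.0%) were called by edgeR, 821 genes had an unadjusted p under 0.05, and DESeq2 called 49 genes, or 0.326%. The largest difference was for Tnf, at -0.95 on the log2 scale (95% interval -2.13 to 0.23), which rested on 3 to 10 counts in Sting1-/- and 6 to 19 counts in WT libraries. Ripk3 was at 0.49 (95% interval -0.09 to 1.07), with 1.66 to 2.15 CPM against 1.06 to 1.82 CPM. The remaining 7 genes lay between -0.28 (Tnfsf10) and 0.15 (Tnfrsf1a).

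**Figure D4:**
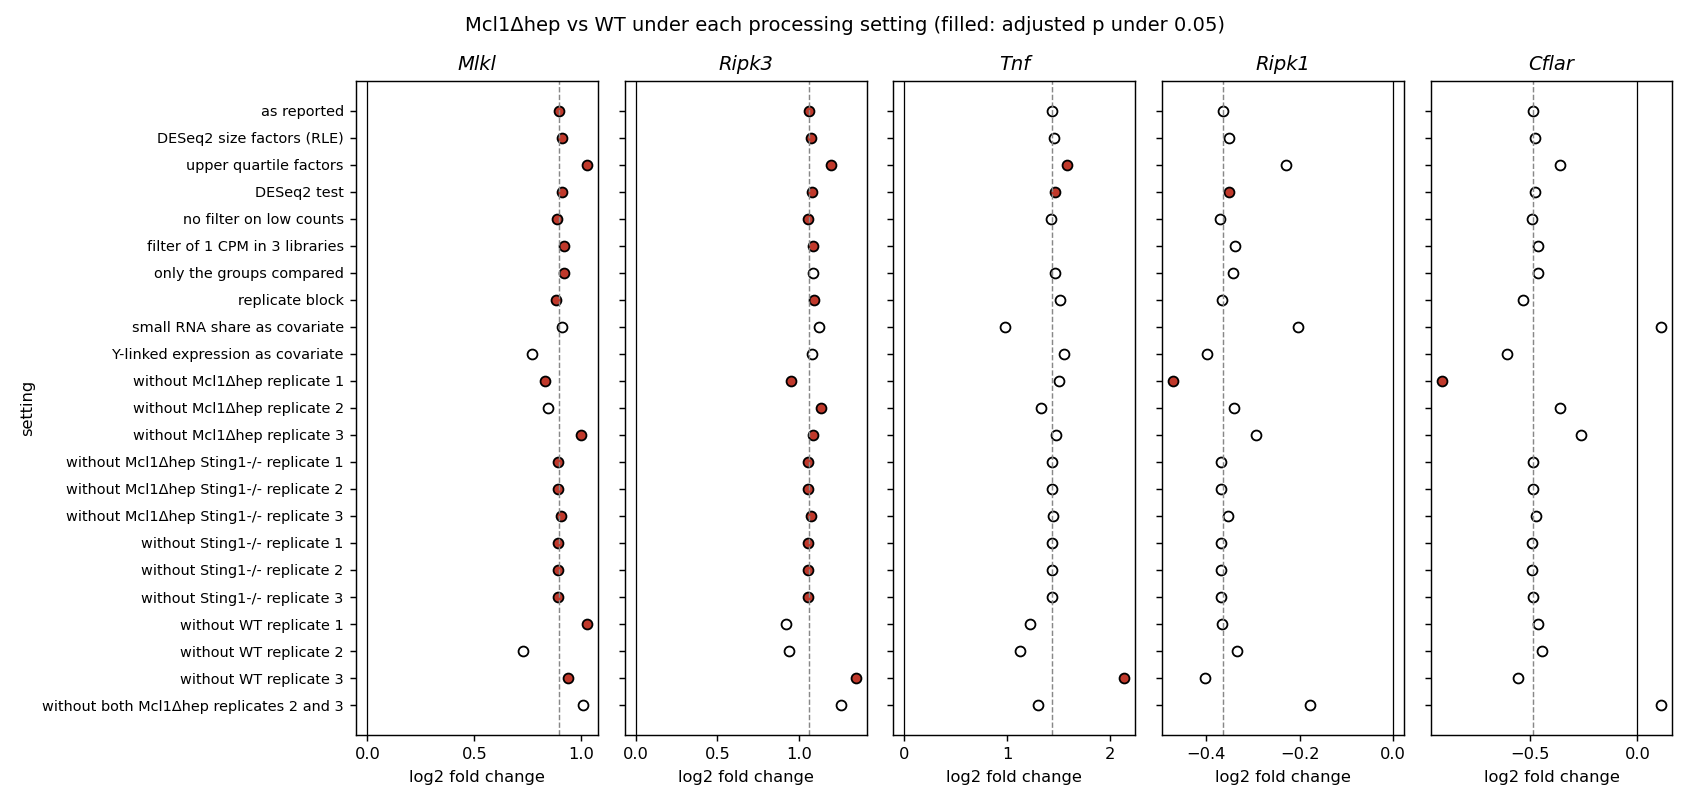
Log2 fold changes (horizontal axes, with a different range for each gene) of 5 genes in Mcl1Δhep against WT livers under each processing setting (vertical axis), filled where the adjusted p was under 0.05, with a dashed line at the reported value. Mlkl, Ripk3, and Tnf were above 0 at every setting, and Cflar crossed 0 with the small RNA covariate (0.11) and without Mcl1Δhep replicates 2 and 3 (0.11).

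The promoters of the 3 genes that rose on average, and the second of 2 annotated Ripk1 promoters, were read from RefSeq (GRCm38.p6, an older build than that of the counts) from 250 bases before to 50 after the annotated start, to show the sequence at their starts. All 9 genes matched, with 10 promoters. Motifs, chosen after these sequences had been seen, were searched on both strands and are in capitals: 9 letters of the interferon element, GAAANNGAA (ISRE), the STAT element TTCNNNGAA (GAS), NF-kB strings GGNNTTTCC and GGNNTTCCC, and the TATA box TATAAA.
Mlkl, chr8:111338156-111338455, minus strand: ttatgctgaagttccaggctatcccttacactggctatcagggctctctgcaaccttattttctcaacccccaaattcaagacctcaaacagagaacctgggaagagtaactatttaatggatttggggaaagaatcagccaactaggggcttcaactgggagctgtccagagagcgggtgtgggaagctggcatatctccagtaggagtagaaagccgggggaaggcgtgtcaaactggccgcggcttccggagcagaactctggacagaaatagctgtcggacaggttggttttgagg
Ripk3, chr14:55788808-55789107, minus strand: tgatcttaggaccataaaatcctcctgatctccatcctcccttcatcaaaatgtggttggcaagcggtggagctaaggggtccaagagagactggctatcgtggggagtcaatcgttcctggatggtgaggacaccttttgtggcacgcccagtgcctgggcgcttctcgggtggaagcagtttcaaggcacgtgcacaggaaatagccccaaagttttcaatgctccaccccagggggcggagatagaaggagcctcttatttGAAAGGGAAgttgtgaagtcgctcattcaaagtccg
Tnf, chr17:35201958-35202257, minus strand: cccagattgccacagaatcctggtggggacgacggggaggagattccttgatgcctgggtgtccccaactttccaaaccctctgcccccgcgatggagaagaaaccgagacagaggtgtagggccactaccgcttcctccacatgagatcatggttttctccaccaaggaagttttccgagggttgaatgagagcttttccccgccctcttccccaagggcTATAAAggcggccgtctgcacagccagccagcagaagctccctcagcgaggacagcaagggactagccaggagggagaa
Ripk1 promoter 2, chr13:34002624-34002923, plus strand: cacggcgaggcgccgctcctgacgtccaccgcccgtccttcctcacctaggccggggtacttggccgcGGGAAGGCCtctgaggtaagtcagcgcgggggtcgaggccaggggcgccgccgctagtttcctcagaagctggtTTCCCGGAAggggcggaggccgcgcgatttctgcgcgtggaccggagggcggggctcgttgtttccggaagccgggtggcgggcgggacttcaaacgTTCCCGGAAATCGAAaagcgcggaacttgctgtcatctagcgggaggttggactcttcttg

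None of the letters searched is in the Mlkl window, the Tnf window holds only a TATA box at position -29 from the start, and the Ripk3 window holds the ISRE letters at position 15. The Ripk1 window shown above holds the ISRE letters at position -5, which overlap a GAS at position -11. That window also holds another GAS at position -108 and NF-kB letters at position -182. The other annotated Ripk1 promoter, whose sequence is not shown, holds none of the letters searched. Among the other members, the Cflar window holds the ISRE letters and TATA boxes on both strands, the Tnfrsf1a window a GAS, and the Fadd window NF-kB letters, while those of Casp8 and Tnfsf10 hold none. Of 32851 promoters of the same length, 8.56% hold the ISRE letters, 8.3% the GAS, 5.82% each of the NF-kB strings, and 13.6% the TATA box.

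The other genes around these 9 were followed with 5 lists of 83 genes, of which 79 were tested. Between Mcl1Δhep and WT livers edgeR called 15 of them higher and 7 lower, or 27.8%, beside 20.2% of all tested genes, and their median log2 fold change was 0.03. Between Mcl1Δhep Sting1-/- and Sting1-/- livers it called 2, both higher, or 2.53%, beside 0.803% of all tested genes. None was called in the comparisons of Sting1-/- with WT or of Mcl1Δhep Sting1-/- with Mcl1Δhep livers, or in the interaction. The lists were made with earlier results of these data known.

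Among other death receptors and TNF family ligands, 3 of 13 tested genes rose and none fell in Mcl1Δhep livers (median 0.37). Of all tested genes, edgeR called 10.8% higher and 9.43% lower there. Tnfrsf12a, the receptor of the cytokine TWEAK, had 3.88, 3.71, and 4.06 CPM in WT livers and 30.3, 49.2, and 20.7 CPM in Mcl1Δhep livers. Its log2 fold change was 3.10 (SE 0.43, adjusted p = 0.00165 with edgeR), and the groups were far apart. Tnfrsf10b, the mouse receptor of TRAIL, had 0 to 8 counts in WT and 38 to 87 counts in Mcl1Δhep libraries, that is 0.211, 0, and 0.231 CPM against 1.80, 1.96, and 1.20 CPM. It rose by 3.46 on the log2 scale (SE 0.65, adjusted p = 0.00549 with edgeR), in contrast to its ligand gene Tnfsf10, which was at -0.54. In livers without Sting1 its log2 fold change was 2.46 without passing (adjusted p = 0.0983 with edgeR), with 0.711 to 1.29 CPM above 0.0873 to 0.265 CPM. Tnfrsf21, death receptor 6, rose by 0.74. After adjustment for the small RNA share Tnfrsf10b was at 3.29 (adjusted p = 0.0558 with edgeR) and Tnfrsf21 at 0.90 (adjusted p = 0.0553), and Tnfrsf21 also missed the threshold with the Y-linked covariate, with only the groups compared, and without WT replicate 2. Fas, named after its values were seen, had 13.4 ± 0.686 CPM in WT and 17.4 ± 1.64 CPM in Mcl1Δhep livers and was not called.

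Of 26 genes of the TNF receptor signaling complex and its ubiquitin enzymes, 3 rose and 3 fell (median -0.17). That share was near the 20.2% called among all tested genes. Tnfaip3, which encodes the ubiquitin-editing enzyme A20, had 3.77, 3.03, and 3.10 CPM in WT and 8.36, 10.4, and 5.76 CPM in Mcl1Δhep livers. All Mcl1Δhep samples were higher, with a log2 fold change of 1.30 (SE 0.25, adjusted p = 0.00608 with edgeR). Traf1, an adaptor that NF-kB induces, rose by 1.23, from 14 to 18 counts per WT library, and passed in 9 of the 12 fits without 1 library. After adjustment for the small RNA share neither passed, with Tnfaip3 at 1.25 (adjusted p = 0.0832 with edgeR) and Traf1 at 0.84 (adjusted p = 0.293). Cyld, a deubiquitinase that acts on RIPK1, fell by 0.69 and Chuk, the kinase IKK-alpha, fell by 0.81 on the log2 scale. Both were called in 10 of the 12 fits without 1 library. After adjustment for the small RNA share they were at -0.41 and -0.64 and did not pass. Traf1, Cyld, and Chuk also missed the threshold with the Y-linked covariate and with only the groups compared.

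Of 12 other necroptosis genes, 2 rose and 1 fell (median -0.05), again near the 20.2% of all tested genes. Aurka, a mitotic kinase that is also known as a negative regulator of necroptosis, had 0.765, 0.623, and 0.793 CPM in WT and 11.2, 10.1, and 5.25 CPM in Mcl1Δhep livers, a log2 fold change of 3.60 (SE 0.50, adjusted p = 0.00163 with edgeR). It was also called in livers without Sting1, at 2.64 (adjusted p = 0.0319 with edgeR), a call that held in 4 of the 12 fits without 1 library (1.94 to 3.02). Tlr4, the receptor of bacterial lipopolysaccharide, rose by 0.86 and Ppm1b, a phosphatase that acts on RIPK3, fell by 0.57. Ppm1b did not pass after adjustment for the small RNA share, at -0.33, nor with only the groups compared. With the Y-linked covariate neither gene passed, with Tlr4 at 0.75 (adjusted p = 0.056 with edgeR) and Ppm1b at -0.56 (adjusted p = 0.056). Zbp1, a nucleic acid sensor that can engage RIPK3, was named after its values were seen. It had 8.18, 3.68, and 9.35 CPM in WT and 8.88, 8.29, and 8.79 CPM in Mcl1Δhep livers, and the ranges overlapped.

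Of 13 genes for caspases and apoptosis execution 1 rose and 2 fell (median 0.03), also near the 20.2% of all tested genes. Apaf1, the scaffold of the apoptosome, rose by 0.69 (adjusted p = 0.0481 with edgeR), and passed in 2 of the 12 fits without 1 library. Xiap, a caspase inhibitor, fell by 0.65, and Parp1, a DNA repair enzyme that caspases cut, fell by 0.43 and passed in 1 of those 12 fits. None of these 3 genes passed after adjustment for the small RNA share, at 0.99, -0.60, and -0.23. They also missed the threshold with the Y-linked covariate and with only the groups compared.

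Of 15 NF-kB subunits and feedback targets, 6 rose and 1 fell (median 0.33), beside 10.8% of all tested genes called higher and 9.43% lower. Vcam1, an adhesion molecule, had 25.8, 14.2, and 27.2 CPM in WT and 97.5, 135, and 73.8 CPM in Mcl1Δhep livers, a log2 fold change of 2.19 (SE 0.27, adjusted p = 0.00126 with edgeR). In livers without Sting1 it rose by 1.42 (adjusted p = 0.0353 with edgeR), from 17.3 to 24.0 CPM to between 54.3 and 58.0 CPM, and passed in 7 of the 12 fits without 1 library. Icam1, its relative, rose by 0.93 in Mcl1Δhep livers, the stress gene Gadd45b by 2.53, and Nfkb2 by 1.07. After adjustment for the small RNA share Gadd45b was at 1.92 (adjusted p = 0.128 with edgeR) and Nfkb2 at 1.12 (adjusted p = 0.109), and Nfkb2 also missed the threshold with only the groups compared and with the Y-linked covariate. Rela and Nfkbia, a subunit and an inhibitor of the canonical pathway named after their values were seen, were at -0.01 and 0.03 and not called. Several of the markers of immune and stellate cells given above were called higher in the same livers, and the part of these cells in these values was not tested.

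**Figure D5:**
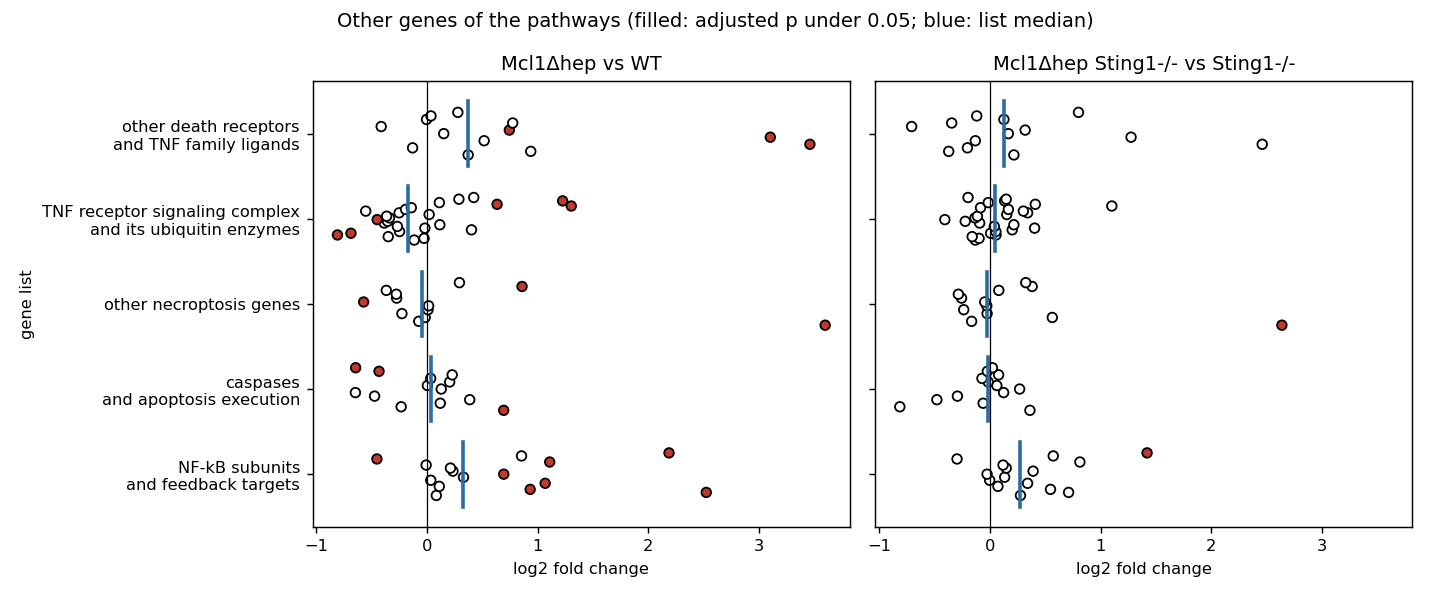
Log2 fold changes (horizontal axes) of the 79 tested genes of the 5 lists (vertical axis; points are spread for visibility) in Mcl1Δhep against WT livers and in Mcl1Δhep Sting1-/- against Sting1-/- livers, filled where the adjusted p of edgeR was under 0.05, with blue lines at the list medians. In the first panel 22 points are filled, and in the second only Aurka (2.64) and Vcam1 (1.42).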

How the data were processed

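Total RNA of 12 mouse livers was sequenced on an Illumina NovaSeq, and the labels and the methods of the study name different extraction kits. The deposited values are counts, read numbers that the authors tallied for each Ensembl gene and left unscaled, with a file per library. The submitters' processing notes name STAR, featureCounts, and GRCm39, and their versions, the annotation release, and the strand setting are not given in the sources used here. Reads of overlapping genes on opposite strands, as for Ripk1 with Serpinb6a, Fadd with Faddos (239 bases of exon), and Tnfrsf1a with Plekhg6 (19 bases), could therefore have been shared.

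From these counts, CPM with TMM factors and log2 fold changes were computed with edgeR 4.0.16 (filterByExpr by genotype, glmQLFit and glmQLFTest, prior count of 2) in R 4.3.3, in a model of all 12 libraries without covariates (common dispersion of 0.0699). The Benjamini-Hochberg adjustment ran over all 15070 tested genes, with calls at 0.05. SE and 95% intervals come from the unshrunken coefficients. DESeq2 1.42.0 was an alternative. TPM used summed exon lengths of GENCODE vM39 (GRCm39), in which 1018 identifiers have no length (0.101% of the counts or less in each library). Gene positions are from the same annotation. Tables and plots were made with pandas 2.3.3 and matplotlib 3.10.9 in Python 3.11.15. The fits were tested on simulated data with known changes.

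The depth was 28826367 to 45266387 counts per library, and intervals reflect this depth and 3 samples per group. No library was a duplicate of another of its genotype: chi-square per degree of freedom between replicates was 40.1 to 290. Libraries of different genotypes were not compared in this way. The share of small structured RNAs is that of 2639 genes annotated as such. The 9 genes and all lists were chosen with earlier results of these data known. Named in the text are the 9 genes in every comparison, Mcl1 and Sting1 as checks, up to 4 called genes per pathway list with the smallest adjusted p in Mcl1Δhep against WT livers, and the 2 genes most like each of the 9, some of which are not reported here. Of the pathway lists, Fasl, Tnfrsf25, Tnfsf15, and Lta were not tested because of low counts. Alternatives were other scalings and filters, fits of the compared groups only, a replicate block, covariates for small RNA and Y-linked expression, and leaving out each library. Circular DNA data and human samples were not analysed here.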

Additional observations from a re-analysis of the deposited data

How the results depend on the processing

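With 3 samples per genotype and few counts on Tnf (3 to 41) and Ripk3 (37 to 152), small differences in these genes were not detectable at this depth. Between Mcl1Δhep and WT livers, where 2 of the 9 genes were called, DESeq2 called 4 (Ripk3, Mlkl, Tnf, and Ripk1), a fit of only the 2 groups 1, and fits with the small RNA share or Y-linked expression as a covariate 0. Without Mcl1Δhep replicates 2 and 3, a setting added after the data were seen, 0 were called, a fit in which the lone sample was assumed to vary like the other groups. Leaving out 1 library gave 0 to 4, with 4 without Mcl1Δhep replicate 1, 1 without Mcl1Δhep replicate 2 or WT replicate 1, and 0 without WT replicate 2. For the average effect, where 3 were called, the small RNA covariate and the fit without Mcl1Δhep replicates 2 and 3 gave 1 each, and leaving out 1 library gave 1 to 3, with 1 without Mcl1Δhep Sting1-/- replicate 2. Leaving out 1 library gave 0 to 2 called genes between Mcl1Δhep Sting1-/- and Mcl1Δhep livers and 0 to 1 for the interaction, in both cases the higher count without Mcl1Δhep replicate 1. Over all genes, 3050 were called between Mcl1Δhep and WT livers and 417 with the small RNA covariate, 824 without Mcl1Δhep replicates 2 and 3, 1178 with only the groups compared, 1531 with the Y-linked covariate, and 1233 to 5232 without 1 library. Tnf was not tested under the filter of 1 CPM in 3 libraries. The causes were not tested.

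Replicate numbers did not pair the samples: of 18 pairs with the same number, 3 had deviations from the group means that correlated over 0.1 (range -0.541 to 0.251). A replicate block left 2 of the 9 genes called between Mcl1Δhep and WT livers, 0 called between the other pairs of genotypes and for the interaction, and 2 in place of 3 for the average effect, where Ripk3 was at 0.62 with an adjusted p of 0.0503 in edgeR.

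Changes of direction were limited to log2 fold changes that did not pass. Between Mcl1Δhep and WT livers, Casp8 was at -0.0011 without a filter, -0.0044 with the replicate block, and -0.073 to 0.094 without 1 library. There Cflar was at 0.11 both with the small RNA covariate and without Mcl1Δhep replicates 2 and 3, and Fadd at 0.032 with upper quartile factors. Between Mcl1Δhep Sting1-/- and Mcl1Δhep livers, Cflar was at -0.015 without Mcl1Δhep replicates 2 and 3, and Tnfsf10 at 0.085 in that fit, 0.014 with the Y-linked covariate, and -0.35 to 0.27 without 1 library. Between Sting1-/- and WT livers, Ripk1 was at 0.022 with the small RNA covariate and Mlkl at -0.24 to 0.058 without 1 library. Between Mcl1Δhep Sting1-/- and Sting1-/- livers, upper quartile factors gave 0.00084 for Cflar, 0.038 for Fadd, 0.024 for Parp1, and 3.3e-05 for Ppm1b, the small RNA covariate -0.00066 for Casp8 and -0.048 for Cyld, and the Y-linked covariate 0.013 for Cflar, -0.033 for Chuk, -0.0088 for Cyld, and -0.042 for Xiap. Without 1 library they ranged from -0.064 to 0.12 for Casp8, -0.21 to 0.066 for Cflar, -0.15 to 0.15 for Fadd, -0.13 to 0.0067 for Tnfrsf1a, -0.014 to 0.15 for Chuk, -0.10 to 0.18 for Cyld, -0.065 to 0.39 for Traf1, -0.087 to 0.012 for Ppm1b, -0.032 to 0.064 for Xiap, and -0.078 to 0.034 for Parp1. For the average effect, Casp8 ranged from -0.032 to 0.064 and Fadd from -0.13 to 0.029 without 1 library, Fadd was at 0.035 with upper quartile factors, and Cflar at 0.033 without Mcl1Δhep replicates 2 and 3. The interaction was 0.016 for Mlkl with the Y-linked covariate and, for Tnf, 0.56 with the small RNA covariate, 0.12 without Mcl1Δhep replicates 2 and 3, and -0.72 to 0.305 without 1 library.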

Other observations

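Several genes whose pattern over the 12 libraries was most like that of Ripk3, Mlkl, or Tnf are known from blood cells. Likeness was the root mean square difference of log2 CPM after centering each gene on its mean, over the 12558 other tested genes with at least 1 CPM on average (12559 for Tnf). Ripk3 was close to Hcls1 (0.157), a cortactin relative of blood cells, where the median gene differed by 0.540. Mlkl was nearest to Slc37a2 (0.134) and to C3ar1 (0.135), the receptor of complement C3a, with a median of 0.567. Tnf was nearest to Cd300lb (0.307), an activating receptor of myeloid cells, and Fblim1 (0.395), with a median of 0.970 that also holds the counting noise of its few reads.

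The nearest genes of the more abundant members are known from many cell types. Cflar was closest to Bdp1 (0.0666), a subunit of the RNA polymerase III machinery, and to Xpr1 (0.0909), and Ripk1 to Celf1 (0.0657) and Zfp148 (0.0676). Cflar itself spread by 0.403 around its mean, so the difference to Bdp1 was small beside its own variation, which included the low values of Mcl1Δhep replicates 2 and 3. For Casp8 the nearest were Hacd3 and Dgkd, for Fadd Stx6 and Cdc23, and for Tnfrsf1a Arrb2 and Ctdnep1, and Bcl7a was among those of Tnfsf10. All libraries share 1 scaling, so these distances are descriptions without a test.

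The adaptor gene Sting1, a check of the labels and not one of the 9, had 4.59, 5.997, and 3.67 CPM in Mcl1Δhep livers and 2.53, 2.43, and 2.11 CPM in WT livers, and was called with a log2 fold change of 1.01 (adjusted p = 0.0324 with edgeR). It had 1.90, 2.53, and 2.33 CPM in Mcl1Δhep Sting1-/- livers.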
